A study of Mus musculus with 4 samples.

Results

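Aminoacyl-tRNA synthetases are the enzymes that join each amino acid to its transfer RNA, the step that precedes protein synthesis. RNA of 36 synthetase genes was followed in mouse LSK cells. These are bone marrow cells without lineage markers but with Sca-1 and c-Kit, a fraction that contains blood stem cells and early progenitors. The genes were taken by name from a table of 15255 genes. A set of 20 cytosolic enzymes carries names without a trailing 2, and a set of 16 mitochondrial enzymes carries names with one. All 36 names were found. The groups were Afg3l2 WT mice and Afg3l2 KO mice, with 2 libraries each, of freshly separated cells with no drug treatment named. Strain, age, the way the knockout was made and whether the libraries came from separate animals are not given in the sources used here. The p-values therefore measure the spread between libraries, and how much of it is technical is not known.

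In animal cells the cytosol and the mitochondrion each charge their own transfer RNAs, mostly with enzymes from separate nuclear genes. Several cytosolic synthetases sit together in the multisynthetase complex, while others work alone. When amino acids run short or mitochondria are stressed, kinases that phosphorylate eIF2 alpha raise translation of the transcription factor ATF4, and cytosolic synthetase genes are among its known targets. AFG3L2, the protein that the targeted gene encodes, is a subunit of a protease of the mitochondrial inner membrane.

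Values are CPM, counts scaled by the authors to an effective library size. Reads recovered from the CPM and summed over the 15255 genes ranged from 16522338 to 17271936 per library. A member held between 124 and 10375 such reads in a library. Afg3l2 RNA, the check on the labels, was 79.6 and 86.0 CPM in the wild-type libraries (replicates 1 and 2, the order kept throughout) against 36.7 and 30.1 CPM in the knockout libraries. The LSK markers were present, with Kit between 223 and 341 CPM and Ly6a, which encodes Sca-1, between 57.1 and 95.4 CPM. Of 9 LSK markers 0 were called by limma or edgeR and 2 had an unadjusted p under 0.05 by each, and their sum was 1754 and 999 CPM in wild-type and 1021 and 666 CPM in knockout libraries. By limma these 2 were Ly6a, which was higher in the knockout, and Flt3, which was lower. The log2 fold change was negative in 7 of the 9 and positive in 2, with a median of -0.27. Cd34 and Flt3 had knockout to wild-type ratios of 0.44 and 0.42. The part of these differences in the synthetase values was not tested. Libraries with the same number shared sex-linked RNA: Xist stood at 0.113 and 15.7 CPM in the libraries numbered 1 and at 889 and 1004 CPM in those numbered 2. Ddx3y, the other sex-linked gene followed, stood at 83.4 and 72.4 CPM in the libraries numbered 1 and at 5.04 and 3.50 CPM in those numbered 2. In each case the wild-type value comes first. The libraries of a group were thus not repeats of the same cells, and the spread within a group includes this difference. Wild-type replicate 2 stood apart in RNA of mature neutrophils, with 1675 CPM summed over 5 markers against 75.9 CPM in wild-type replicate 1 and 689 and 465 CPM in the knockout libraries.

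A gene was called at an adjusted p under 0.05 in a limma test across all 15255 genes. Of the 20 cytosolic genes 11 rose and 0 fell. Over all genes tested, 1.58% were called higher and 0.839% lower, or 2.42% in all. Log2 fold changes of the cytosolic set ran from 0.18 to 1.42 with a median of 0.90, against a median of -0.017 over all genes. All 20 had both knockout libraries above both wild-type libraries, a separation found in 27.2% of all genes. Of the 16 mitochondrial genes 0 were called by limma or by edgeR, while 5 had an unadjusted p under 0.05 in each test, all higher. By limma 20.8% of all genes had an unadjusted p under 0.05, in either direction. The share of all genes at that level by edgeR was not worked out. The difference between the sets was not tested.

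**Figure D1:**
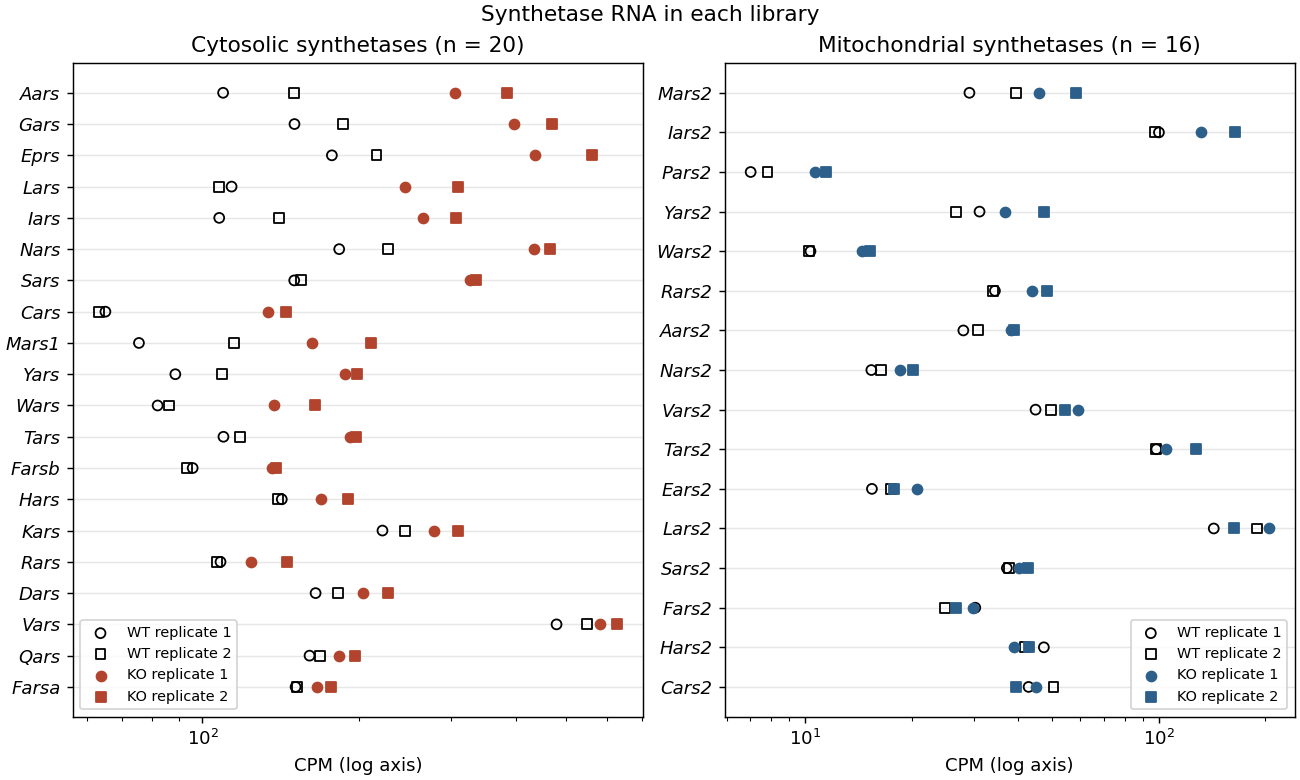
CPM of each synthetase on a log axis in each of the 4 libraries, cytosolic genes on the left and mitochondrial genes on the right, ordered by log2 fold change. Open symbols are wild-type and filled symbols knockout libraries, circles replicate 1 and squares replicate 2. In all 20 cytosolic genes and in 12 of 16 mitochondrial genes the filled symbols lie to the right of both open ones.

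The calls in the cytosolic set rested on both knockout libraries being present. Without knockout replicate 1 limma called 1 of the 20, Lars, against 0.321% of all genes called higher, and without knockout replicate 2 it called 0 of the 20 and 0% of all genes. With the same libraries left out, edgeR called 1 and 0 of the 20, against 0.341% and 0.0197% of all genes called higher. The set's median log2 fold change was 0.98 without knockout replicate 1 and 0.77 without knockout replicate 2. Without wild-type replicate 1 limma called 11 and edgeR 9 (1.84% and 1.39% of all genes higher), and without wild-type replicate 2 each called 12 (4.45% and 3.28%).

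Other ways of processing gave the same 11 calls: median-of-ratios scaling, a stricter filter, a smaller pseudocount, edgeR and limma-voom. In that order they called 1.7%, 1.86%, 1.51%, 1.27% and 1.13% of the genes tested higher. The stricter filter left 13304 genes to test and the others tested all 15255. DESeq2 called 13 cytosolic genes and 1 mitochondrial gene. Of the 13480 genes to which it gave an adjusted p, 4.98% were called higher. A fit with the replicate number as a block called 6.64% of all genes higher, among them 13 cytosolic and 2 mitochondrial members.

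With all 4 libraries the largest log2 fold change was that of Aars, which charges alanine; without wild-type replicate 1 it was 1.19, below Lars at 1.35 and Gars at 1.21. Aars stood at 109.6 and 149.7 CPM in the wild-type libraries and at 306 and 385 CPM in the knockout libraries, so that the lowest knockout value was above the highest wild-type value. The means were 129.7 ± 28.4 and 346 ± 56.0 CPM (SD, n = 2 each), a ratio of 2.67, with a log2 fold change of 1.42 ± 0.19 (SE) and a limma adjusted p = 0.0144. Aars (ENSMUSG00000031960) lies on the plus strand of chromosome 8 of GRCm38 from 111033144 to 111057664. Exons of Aars overlap those of Exosc6 on the same strand and Gm24103 on the opposite strand. Among the other called members, exons of Cars and Yars overlap genes on the opposite strand, as do those of Farsb and Iars2, which were not called. The part of these overlaps in the values was not tested.

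Gars, which charges glycine, serves the cytosol and the mitochondrion from 1 gene. It stood at 150.2 and 186 CPM in wild-type and at 397 and 469 CPM in knockout libraries, again without overlap. Its log2 fold change was 1.36 ± 0.16 (limma adjusted p = 0.0103). Kars, the lysine enzyme that also serves both compartments from 1 gene, did not pass, with 222 and 245 CPM in wild-type and 279 and 309.6 CPM in knockout libraries (log2 fold change 0.33 ± 0.14, limma adjusted p = 0.230).

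Some enzymes of the multisynthetase complex were among the members with the largest changes. Eprs, a fused enzyme for glutamate and proline, stood at 177 and 216 CPM in wild-type and at 435 and 561 CPM in knockout libraries. Its log2 fold change was 1.33 ± 0.17 (limma adjusted p = 0.0138). Lars, the leucine enzyme, is also known as a leucine sensor for mTORC1, the kinase complex that drives growth. It stood at 114 and 108 CPM in wild-type and at 245 and 309 CPM in knockout libraries, with a log2 fold change of 1.31 ± 0.16 (limma adjusted p = 0.0103). Iars, the isoleucine enzyme, stood at 108 and 140.4 CPM in wild-type and at 265 and 306 CPM in knockout libraries, with a log2 fold change of 1.21 ± 0.17 (limma adjusted p = 0.0156). In all 3 genes the groups were apart, and knockout replicate 2 held more RNA than knockout replicate 1.

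Of 8 measured enzymes of that complex 3 rose, and of the 12 cytosolic enzymes outside it 8 rose. The difference between these groups was not tested. Mars1, the methionine enzyme of the complex, had a log2 fold change of 0.98 ± 0.23 but a limma adjusted p = 0.0843. Its wild-type libraries were far apart, at 75.5 and 115 CPM, below 163 and 211 CPM in the knockout libraries. Exons of Mars1 overlap those of Ddit3 on the opposite strand, and whether the reads kept their strand is not given in the sources used here. Ddit3, the stress factor CHOP, stood at 17.0 and 18.0 CPM in wild-type and at 49.5 and 57.3 CPM in knockout libraries. The part of this overlap in the Mars1 values was not tested.

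The enzymes for asparagine, serine and cysteine rose as well. Nars, the asparagine enzyme, stood at 183 and 227 CPM in wild-type and at 434 and 466 CPM in knockout libraries (log2 fold change 1.14 ± 0.15, limma adjusted p = 0.0144). RNA of Asns, the enzyme that makes asparagine and a known ATF4 target, rose from 49.9 ± 14.2 to 405 ± 99.1 CPM (limma adjusted p = 0.00723).

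Sars, the serine enzyme, had the smallest adjusted p of the members by limma, 0.00977. It stood at 150.1 and 154 CPM in wild-type and at 326 and 336 CPM in knockout libraries, a ratio of 2.18. Cars, the cysteine enzyme, had 65.1 and 63.2 CPM in wild-type against 134 and 144 CPM in knockout libraries, a ratio of 2.17 (log2 fold change 1.10 ± 0.14, limma adjusted p = 0.0115). In both genes the difference between groups was larger than the difference between libraries of a group.

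The enzymes for tyrosine, tryptophan and threonine rose least among those called. Yars stood at 88.7 and 109 CPM in wild-type and at 188 and 198 CPM in knockout libraries (log2 fold change 0.96 ± 0.15, limma adjusted p = 0.0231). Wars, which is also known as an interferon-induced gene, had 82.0 and 86.4 CPM in wild-type against 137 and 164 CPM in knockout libraries (0.83 ± 0.15, limma adjusted p = 0.0343). Tars had 109.7 and 118 CPM in wild-type against 192 and 198 CPM in knockout libraries (0.77 ± 0.13, limma adjusted p = 0.0299). The groups were apart in each of these genes.

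The other cytosolic genes were not called. Farsb and Farsa encode the beta and alpha subunits of 1 enzyme, which charges phenylalanine. Farsb had a log2 fold change of 0.53 ± 0.13 (limma adjusted p = 0.0840) and 136 and 138 CPM in the knockout libraries against 95.7 and 93.2 CPM in the wild-type ones. Farsa stood at 151 and 152 CPM in wild-type and at 166 and 177 CPM in knockout libraries, the smallest change of the set (0.18 ± 0.13, limma adjusted p = 0.477). The subunits of this enzyme thus had unlike values, though the difference between them was not tested.

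Vars, the valine enzyme and the most abundant member by CPM, stood at 479 and 548 CPM in wild-type and at 580.3 and 626 CPM in knockout libraries (log2 fold change 0.23 ± 0.14, limma adjusted p = 0.391). Qars, the glutamine enzyme of the complex, had 161 and 168 CPM in wild-type against 183 and 196 CPM in knockout libraries (0.20 ± 0.13, limma adjusted p = 0.415). The histidine, arginine and aspartate enzymes Hars, Rars and Dars had log2 fold changes of 0.34, 0.32 and 0.31, with limma adjusted p-values of 0.205 to 0.259. These genes had both knockout libraries above both wild-type ones, but by amounts that the test did not tell from the spread between libraries.

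**Figure D2:**
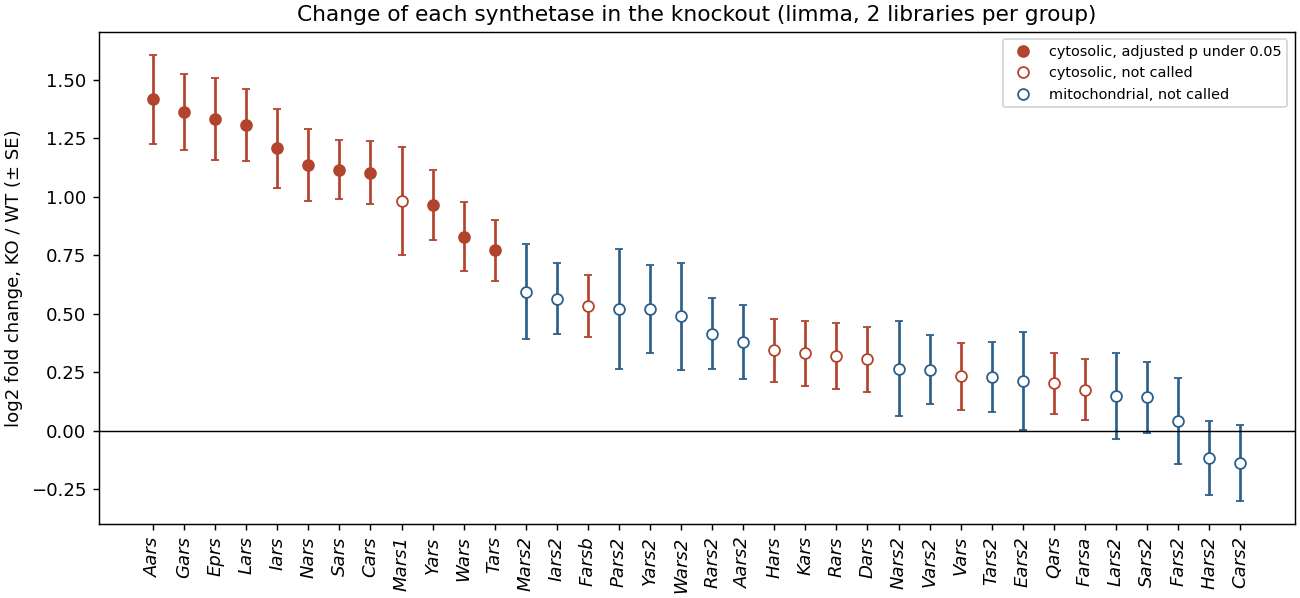
Log2 fold change of each of the 36 synthetases in the knockout against wild-type (points) with its SE (bars), in falling order. Filled points are the 11 genes called by limma, all cytosolic, which run from 0.77 for Tars to 1.42 for Aars; Mars1 at 0.98 lies among them without being called.

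Synthetases fall into a pair of unrelated structural classes, I and II. Of 9 cytosolic class I enzymes 5 rose, with a median log2 fold change of 0.96, and of 10 class II enzymes 5 rose, with a median of 0.65. Eprs holds an enzyme of each class. No direct test of one class against the other was made.

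Mitochondrial synthetases had log2 fold changes from -0.14 to 0.59 with a median of 0.26. Both knockout libraries were above both wild-type ones in 12 of 16 genes and below them in 0, against 27.2% and 26.9% of all genes. Mars2, the mitochondrial methionine enzyme, had the largest log2 fold change, 0.59 ± 0.20 (limma adjusted p = 0.163). It stood at 29.1 and 39.5 CPM in wild-type and at 45.9 and 58.3 CPM in knockout libraries, so the gap between the groups was smaller than the gap within either group.

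Iars2, the isoleucine enzyme, had the smallest p of the mitochondrial set. It stood at 100.1 and 97.7 CPM in wild-type and at 132 and 164 CPM in knockout libraries (log2 fold change 0.57 ± 0.15, limma adjusted p = 0.106). Pars2, the proline enzyme, had the lowest CPM of the members, with 7.02 and 7.83 CPM in wild-type against 10.7 and 11.5 CPM in knockout libraries (0.52 ± 0.26, limma adjusted p = 0.295). Iars2 lies 33647 bases from Eprs on chromosome 1, on the opposite strand.

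Yars2, Wars2, Rars2 and Aars2, which charge tyrosine, tryptophan, arginine and alanine, had log2 fold changes of 0.52, 0.49, 0.42 and 0.38. Nars2, Vars2, Tars2 and Ears2, for asparagine, valine, threonine and glutamate, had values of 0.27, 0.26, 0.23 and 0.22. In each of these 8 genes both knockout libraries were above both wild-type ones and the limma adjusted p was above the threshold.

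The lower end of the mitochondrial set held genes with overlapping groups. Lars2, the leucine enzyme, was the most abundant at 143 and 189.5 CPM in wild-type and 204 and 163 CPM in knockout libraries, and Sars2, the serine enzyme, had a log2 fold change of 0.14 like that of Lars2, 0.15. Fars2, the phenylalanine enzyme, had 30.3 and 24.8 CPM in wild-type against 29.8 and 26.7 CPM in knockout libraries, with a log2 fold change of 0.041 ± 0.18. Among the 4 libraries neither Lars2 nor Fars2 separated the groups, whereas the Sars2 groups were apart.

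Hars2 and Cars2, the histidine and cysteine enzymes, were the members with a negative log2 fold change, and neither passed. Hars2 stood at 47.3 and 41.8 CPM in wild-type and at 39.0 and 43.1 CPM in knockout libraries (log2 fold change -0.11 ± 0.16, limma adjusted p = 0.725). Cars2 had 42.8 and 50.4 CPM in wild-type against 45.0 and 39.5 CPM in knockout libraries (-0.14 ± 0.16, limma adjusted p = 0.675). The groups overlapped in both.

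Members for the same amino acid could be set side by side in 13 pairs of 1 cytosolic and 1 mitochondrial gene. The log2 fold change was larger in the cytosolic gene in 11 pairs, and the median difference was 0.54. The gap was widest for cysteine, where Cars exceeded Cars2 by 1.24, followed by leucine (1.16), alanine (1.04), serine (0.97) and asparagine (0.87). In these 11 pairs the log2 ratio of cytosolic to mitochondrial RNA was higher in both knockout libraries than in both wild-type ones. How often pairs of other genes separate in this way was not worked out. With 2 libraries per group, no single separation of this kind can give a 2-sided exact permutation p below 0.333. For valine and arginine the cytosolic minus the mitochondrial value was -0.028 and -0.096. The valine ratios overlapped between the groups, while for arginine both knockout libraries lay below both wild-type ones. Single pairs were not tested.

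**Figure D3:**
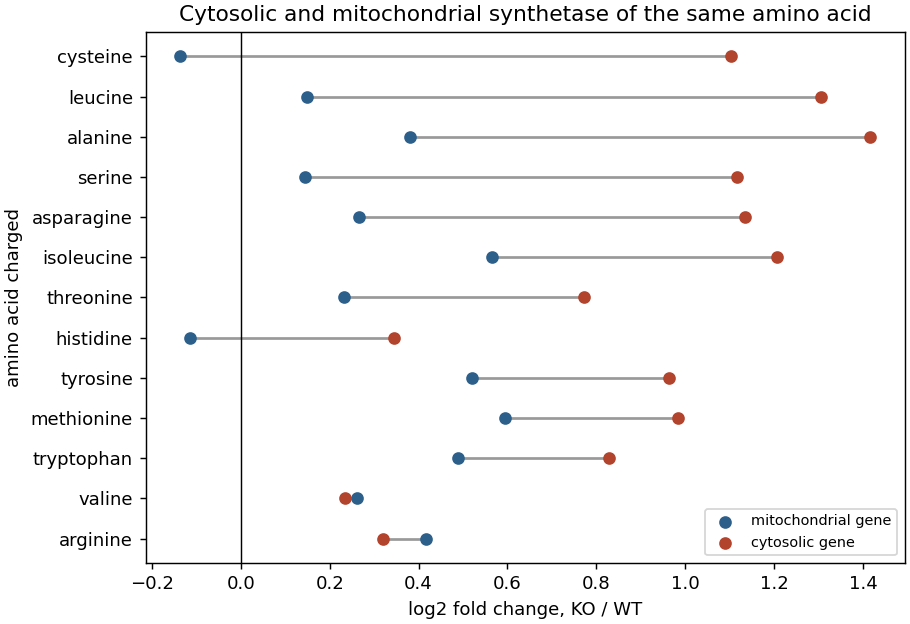
Log2 fold change in the knockout of the cytosolic gene (red) and the mitochondrial gene (blue) that charge the same amino acid, for 13 amino acids ordered by the difference. The red point lies to the right in 11 rows, by 1.24 for cysteine, and to the left for valine and arginine.

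Summed over each set, cytosolic synthetase RNA made up 2936 and 3309 CPM in the wild-type libraries and 5063 and 5756 CPM in the knockout libraries, a ratio of means of 1.73. Mitochondrial synthetase RNA made up 715 and 773 CPM in wild-type and 883 and 919 CPM in knockout libraries, a ratio of 1.21. The cytosolic sum was 4.11 and 4.28 times the mitochondrial sum in wild-type libraries and 5.74 and 6.27 times in knockout libraries. Both sums were thus higher in the knockout libraries, and so was their ratio. The median log2 fold change was higher by 0.63 in the cytosolic set than in the mitochondrial set. It was higher by 0.46 without knockout replicate 2.

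Levels between genes were compared as CPM per kilobase of annotated exon. On this scale the wild-type mean of the cytosolic genes ran from 9.75 for Cars to 91.6 for Vars, with a median of 28.7. Mitochondrial genes ran from 1.73 for Wars2 to 15.0 for Lars2, with a median of 7.54. Vars, at 91.6 ± 8.68 CPM per kilobase, stood clear of the next genes Hars, Gars and Kars, whose wild-type means of 57.6 ± 0.635, 54.0 ± 8.17 and 52.3 ± 3.75 lay close together. In the knockout Gars reached 139 and Vars 108 CPM per kilobase. The exon lengths cover all annotated transcripts, which lowers the value of genes with long alternative exons.

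The members Nars, Lars, Hars and Hars2 lie on chromosome 18, which also holds Afg3l2. Nars is the nearest, 2.9 Mb away, and the others lie 25.1 to 30.6 Mb away. Hars and Hars2 lie head to head on opposite strands and overlap by 198 bases. Hars had a log2 fold change of 0.34 and Hars2 of -0.11, and reads in the overlap cannot be told apart without strand.

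Promoters are shown because ATF4 with a C/EBP partner is known to bind the CEBP-ATF response element. Its motif was searched as TGATGNAA on both strands, from 250 bases before to 50 after the start of RefSeq transcripts on GRCm38.p6. Promoters were matched for 27 members, 13 cytosolic and 14 mitochondrial; those of Cars, Hars, Lars, Nars, Rars, Vars, Wars, Hars2 and Pars2 were not analysed here. The motif was present in 5 of the 13 cytosolic promoters, those of Aars, Gars, Iars, Tars and Yars, and in 0 of the 14 mitochondrial ones. Among all 27025 genes with such a promoter 4.51% held it, and 2.88% of the 10590 that are also in the expression table. All 5 genes were among those that rose, but Sars and Eprs rose too and had no match in this window. A match is a run of letters and does not show binding.

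A match in each of these promoters is given with 11 bases on each side, on the gene's own strand from 5′ to 3′, with the motif in capitals. Where the capitals read TTGCATCA or TTTCATCA the motif lies on the opposite strand.
Aars, positions -2 to 28, chr8:111033840-111033869: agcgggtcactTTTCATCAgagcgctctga
Gars, positions -41 to -12, chr6:55037960-55037989: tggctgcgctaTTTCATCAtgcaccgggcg
Iars, positions -4 to 26, chr13:49682126-49682155: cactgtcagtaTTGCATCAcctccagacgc
Tars, positions -26 to 4, chr15:11399655-11399684 (minus strand): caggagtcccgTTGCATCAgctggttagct
Yars, positions -8 to 22, chr4:129189895-129189924: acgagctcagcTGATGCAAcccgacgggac

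Positions count from 1 at the RefSeq start, with negative numbers before it. The nearest start in GENCODE's basic set differs from these by 0 bases for Iars, 6 for Gars, 7 for Tars, 60 for Aars and 143 for Yars. The matches in Aars, Iars and Yars lie after the RefSeq start. For Yars the nearest GENCODE start is upstream, so that its match lies inside the transcribed gene by either start. For Aars the nearest GENCODE start is downstream, so that its match lies before that start. The GENCODE extent of Aars begins farther upstream, at 111033144, so that the match still lies within the annotated gene. Of the 5 matches shown, those in Iars, Tars and Yars share the same 8 letters on one strand or the other, and those in Aars and Gars share another 8.

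Longer stretches, from 130 to 8 bases before the start, are shown for Gars and Tars, whose matches lie upstream of the start, and for Sars and Iars2, which have none. Sars rose in the knockout and Iars2 was not called.
Gars, chr6:55037871-55037993: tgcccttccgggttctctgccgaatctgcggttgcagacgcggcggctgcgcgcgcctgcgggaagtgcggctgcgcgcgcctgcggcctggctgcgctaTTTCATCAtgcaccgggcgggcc
Tars, chr15:11399666-11399788 (minus strand): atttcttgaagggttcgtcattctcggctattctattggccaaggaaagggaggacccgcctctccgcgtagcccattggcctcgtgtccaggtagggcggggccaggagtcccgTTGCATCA
Sars, chr3:108445267-108445389 (minus strand): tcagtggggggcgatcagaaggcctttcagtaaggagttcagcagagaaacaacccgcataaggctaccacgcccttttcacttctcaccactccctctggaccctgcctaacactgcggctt
Iars2, chr1:185329409-185329531 (minus strand): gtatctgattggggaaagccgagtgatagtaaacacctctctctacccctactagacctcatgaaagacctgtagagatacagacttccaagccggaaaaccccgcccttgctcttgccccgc

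**Figure D4:**
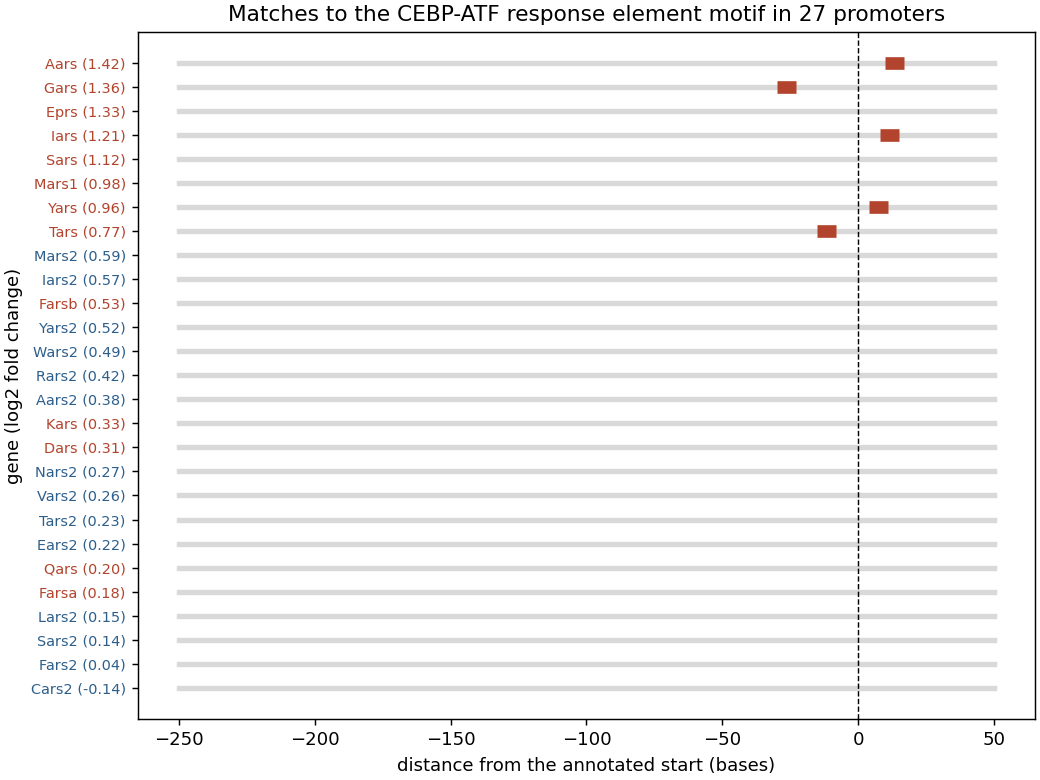
Position of the motif matches shown in the text (red blocks) along the promoters of 27 members, as the distance in bases from the RefSeq start (dashed line), with genes ordered by log2 fold change, which is given in brackets. Red names are cytosolic and blue names mitochondrial. The 5 matches lie in promoters of cytosolic genes with log2 fold changes of 0.77 to 1.42.

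Of 18 other genes of tRNA charging 0 were called by limma or by edgeR. By each test 4 had an unadjusted p under 0.05, and the median log2 fold change was 0.12. Eef1e1, a scaffold of the multisynthetase complex, had a log2 fold change of 0.37 ± 0.14 (limma adjusted p = 0.202). The scaffolds Aimp1 and Aimp2 had values of -0.13 and 0.36. Qrsl1, Gatb and Gatc, the amidotransferase that makes mitochondrial glutaminyl-tRNA, had values of 0.038, 0.076 and 0.23. Pus1 and Trnt1, which modify transfer RNA and add its CCA end, had values of 0.43 and 0.44. Trit1, which modifies a base next to the anticodon, had a log2 fold change of -0.66 ± 0.21 (limma adjusted p = 0.144).

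Atf4 RNA stood at 309 and 306 CPM in wild-type and at 488 and 444 CPM in knockout libraries and was not called (log2 fold change 0.60 ± 0.13, limma adjusted p = 0.0663). Of the other genes on the stress list, Trib3, Sesn2, Chac1 and Ddit3 rose along with Asns. The ATF4 protein was not measured.

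Among the libraries, synthetase RNA also differed within a group. Knockout replicate 2 held more than knockout replicate 1 for 20 of 20 cytosolic and 11 of 16 mitochondrial genes, against 49.4% of the 13795 genes that averaged 1 CPM or more. Wild-type replicate 2 held more than wild-type replicate 1 for 15 of 20 and 9 of 16, against 52.4%. Erythroid markers followed the same order in the knockout: their sum over 8 genes was 814 and 794 CPM in wild-type and 1351 and 1891 CPM in knockout libraries, and 5 of the 8 rose (Gata1, Klf1, Epor, Car1 and Ermap). The globin genes Hba-a1 and Hbb-bt, which define maturing red cells, stayed between 66.2 and 76.1 CPM and between 17.4 and 21.7 CPM. The part of erythroid cells in the synthetase values was not tested. In bulk RNA, more cells of a type and more RNA per cell cannot be told apart.

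Of 8 dendritic and monocytic markers Cx3cr1, Csf1r, Siglech and Clec10a fell and Xcr1 rose by limma, while edgeR called 2 lower, and their sum ranged from 645 to 1464 CPM in wild-type and from 1648 to 1798 CPM in knockout libraries. The median log2 fold change of these 8 markers was -1.14. Most of the knockout sum was Cd74, an antigen presentation gene, which had 276 and 568 CPM in wild-type against 1285 and 1422 CPM in knockout libraries and was not called (limma adjusted p = 0.0885). Markers of T, B and NK cells summed to 83.7 and 267 CPM and to 47.0 and 183 CPM, with 0 of 8 called by limma or edgeR and 1 and 0 at an unadjusted p under 0.05. Of 5 neutrophil markers 0 were called by limma or edgeR, and 0 had an unadjusted p under 0.05. Without wild-type replicate 2, the library with the most neutrophil RNA, the median log2 fold change of the cytosolic synthetases was 0.97, against 0.90 with all libraries. Markers of dividing cells summed to 2074 and 2561 CPM in wild-type and to 2304 and 2652 CPM in knockout libraries, with 0 of 8 called by limma or edgeR and 0 at an unadjusted p under 0.05. The part of these cell types in the synthetase values was not tested.

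In the authors' deposited table, 13 of 20 cytosolic and 2 of 16 mitochondrial synthetases had an adjusted p under 0.05, all higher. Of all genes in the authors' deposited table, 6.04% were called higher and 5.47% lower. The genes beyond the 11 were Mars1 (adjusted p = 4.14e-06 in the authors' deposited table), Farsb (0.0261), Iars2 (0.0257) and Mars2 (0.0308). The fit with the replicate number as a block added the same genes. The authors' comparison is named as paired, so its design may differ from that of the limma test, which had no block. The authors' deposited list of genes higher by a log2 fold change of at least 1 held 8 cytosolic and 0 mitochondrial members. The share of all genes on that list was not worked out, so these counts stand without a background.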

How the data were processed

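Per the submitters' processing notes, STAR 2.7.10a, featureCounts 2.0.1 and GRCm38.p6 were used; settings and the annotation release are not given in the sources used here. The authors deposited a normalized signal for 15255 genes, CPM of an effective library size. Every value (100%) was a whole multiple, within 0.01, of the lowest value in its column, which gives back the reads. The authors' deposited table also holds their log2 fold change, likelihood ratio score, p-value and adjusted p-value.

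Groups were compared with limma 3.58.1 (R 4.3.3) on log2(CPM + 1), two-sided, using trended and robust moderation without a block and Benjamini-Hochberg adjustment over all genes. The fit has 2 residual degrees of freedom, was tested on simulated data, and understates the change of low genes. The alternatives tried were other scaling (median of ratios), a filter that needs 1 CPM in each library of either group plus 20 reads on average (13304 genes), a pseudocount of 0.1 CPM, edgeR 4.0.16, DESeq2 1.42.0 and limma-voom on the reads, the replicate number as a block, and each library left out in turn. Positions and exon lengths are from GENCODE M21, promoters from RefSeq. Values per library are given for members called and for the 3 highest and lowest log2 fold changes of each set, and for further members chosen after their values were seen. Members, gene lists and tests were chosen with earlier results of these data known. The authors' enrichment sheets were not used here. From the marker lists 1 gene, and from the motif search 1 further match, are not reported here.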

Additional observations from a re-analysis of the deposited data

How the results depend on the processing

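Median-of-ratios scaling, the stricter filter, the pseudocount of 0.1 CPM, edgeR and limma-voom each kept the same 11 cytosolic calls, 0 mitochondrial calls and the direction of all 36 members. DESeq2 added Farsb, Mars1 and Iars2, which gave 1 mitochondrial call. The sample labels do not say what a replicate number shares. The authors' name for the comparison holds the word paired but does not say what was paired. Libraries with the same number shared sex-linked RNA, and the replicate differences of both groups had a correlation across 13795 genes of 0.286. With the number as a replicate block 13 cytosolic and 2 mitochondrial genes were called, the additions being Farsb, Mars1, Iars2 and Mars2. Without Gars, Kars and Qars, 10 of 17 cytosolic genes were called, with a median of 0.96. Leaving out each library in turn gave 0 to 12 cytosolic calls by limma and 0 to 12 by edgeR (edgeR chosen here after the data were seen), and 0 to 1 mitochondrial calls by limma. The cytosolic median ranged from 0.76 to 0.98, the mitochondrial from 0.23 to 0.35 and their difference from 0.46 to 0.63. The log2 fold change of Lars2 ranged from -0.053 to 0.35, with -0.012 without knockout replicate 1, and that of Fars2 from -0.097 to 0.18, with -0.035 without knockout replicate 1; the cause was not tested. The smallest number of calls came without knockout replicate 2, when limma called 0 of all 15255 genes and edgeR 3; the lone library of a group is assumed there to vary like the other group. With 2 libraries per group a missed threshold does not show that a gene was unchanged.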
